A study of Homo sapiens with 15 samples.

Results

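The transcripts of 9 human genes for antigen presentation were followed in THP-1 cells, a human monocytic leukemia line, that had been incubated with bacterial extracellular vesicles (BEVs). The rule lists the genes by name and uses no measured value, and the list was drawn up with earlier results of these data known. They were the class I heavy chain genes HLA-B, HLA-C and HLA-F, the light chain gene B2M, the peptide transporter genes TAP1 and TAP2, and the immunoproteasome genes PSMB8, PSMB9 and PSMB10. All 9 were among the 17198 genes, of 60286 in the table, that had enough counts to be tested.

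Class I molecules of the major histocompatibility complex (MHC) show peptides of proteins made inside the cell to CD8+ T cells. The proteasome cuts these proteins, the transporter formed by TAP1 and TAP2 carries the peptides into the endoplasmic reticulum, and a heavy chain joined to beta-2 microglobulin binds them and moves to the surface. Interferons and NF-kappa B signalling raise many of these genes in monocytes, and PSMB8, PSMB9 and PSMB10 are the catalytic subunits that take the places of PSMB5, PSMB6 and PSMB7 in the immunoproteasome.

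RNA was sequenced in 15 libraries of wild-type THP-1 cells, 3 in each of 5 groups. Controls were given PBS (NC). *E. coli* BEVs at 1 μg/mL were isolated by ultracentrifugation (UC) in the EUC group or with epsilon-poly-L-lysine (PL) in the EPL group, and *S. aureus* BEVs at 10 μg/mL likewise by UC in the SUC group or by PL in the SPL group. The methods give 6 h of incubation and the labels give Day 0. The bacterial species and the dose changed together, so that they cannot be told apart. The 3 samples of a group are called triplicates, and p-values measure only the spread between these samples, which may be technical.

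Library totals ran from 14399421 to 16637345 counted reads. Values are given as CPM, which are counts scaled to a common library size after TMM normalization. A gene passed the test if its adjusted p was 0.01 or less, and a passed gene with a change of 2-fold or more was a DEG. The libraries EUC3, EPL1 and SUC3 (replicates 3, 1 and 3) stood apart from the other libraries of their groups. Their deviations from the group mean ran against transcript length over all tested genes, with Spearman's rho of -0.321, -0.308 and -0.326, while rho was -0.172 to 0.266 in the other 12 libraries. Counts of members are therefore also given without these 3 libraries. The summed level of 8 monocyte markers was 1094 to 1127 CPM in NC and 1562 to 2131 CPM in stimulated cells. Of these 8, SPI1, CD14 and CSF1R passed higher in all 4 groups, CD33 passed lower in 4, LYZ in 3 and FCGR1A in 1, and 2 passed in none. No T cell or epithelial marker had enough counts to be tested, with sums of at most 0.0624 and 0.384 CPM. The sum of 4 B cell markers was 9.21 to 10.6 CPM in NC and 12.1 to 27.0 CPM in stimulated cells, of which 2 were tested, and that of 4 fibroblast markers was 0.640 to 0.941 CPM and 2.12 to 7.68 CPM, of which 2 were tested. The sum of 4 NK cell markers, of which 1 was tested, was 7.69 to 13.5 CPM over all libraries. Their part in the results was not tested. In bulk RNA, fewer cells with a transcript and less of it per cell cannot be told apart.

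The 250 bases before the RefSeq start of 5 members are shown because these genes cover the range of the responses and, for TAP1 and PSMB9, a shared region. Sequences are from RefSeq on GRCh38.p14 and read 5′ to 3′ along the gene, with matches in capitals to the core of the interferon-stimulated response element (ISRE core, GAAA and GAAA with 2 bases of any kind between them), the interferon-gamma activated site (GAS, TTCNNNGAA) or the NF-kappa B consensus on either strand. Overlapping matches run together.
TAP1 promoter, chr6:32853705-32853954, minus strand: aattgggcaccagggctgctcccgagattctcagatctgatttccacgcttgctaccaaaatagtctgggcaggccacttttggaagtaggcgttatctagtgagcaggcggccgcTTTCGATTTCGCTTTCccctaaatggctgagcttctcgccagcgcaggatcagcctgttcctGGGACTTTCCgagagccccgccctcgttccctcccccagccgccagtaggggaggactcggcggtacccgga
PSMB9 promoter, chr6:32853942-32854191, plus strand: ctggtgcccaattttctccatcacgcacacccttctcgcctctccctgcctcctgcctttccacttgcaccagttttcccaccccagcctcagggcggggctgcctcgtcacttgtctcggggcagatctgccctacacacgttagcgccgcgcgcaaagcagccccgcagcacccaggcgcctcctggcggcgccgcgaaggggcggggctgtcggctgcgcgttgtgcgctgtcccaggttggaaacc
B2M promoter, chr15:44711267-44711516, plus strand: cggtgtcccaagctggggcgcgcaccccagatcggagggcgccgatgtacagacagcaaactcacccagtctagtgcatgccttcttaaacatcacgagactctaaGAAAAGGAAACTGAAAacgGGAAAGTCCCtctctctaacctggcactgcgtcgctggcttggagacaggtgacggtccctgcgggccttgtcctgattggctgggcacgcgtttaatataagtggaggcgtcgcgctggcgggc
HLA-B promoter, chr6:31357180-31357429, minus strand: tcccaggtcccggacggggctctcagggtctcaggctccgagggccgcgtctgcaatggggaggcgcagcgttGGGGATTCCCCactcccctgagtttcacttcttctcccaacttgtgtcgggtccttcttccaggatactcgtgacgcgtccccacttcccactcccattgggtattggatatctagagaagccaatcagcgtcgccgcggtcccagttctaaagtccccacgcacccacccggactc
PSMB10 promoter, chr16:67936851-67937100, minus strand: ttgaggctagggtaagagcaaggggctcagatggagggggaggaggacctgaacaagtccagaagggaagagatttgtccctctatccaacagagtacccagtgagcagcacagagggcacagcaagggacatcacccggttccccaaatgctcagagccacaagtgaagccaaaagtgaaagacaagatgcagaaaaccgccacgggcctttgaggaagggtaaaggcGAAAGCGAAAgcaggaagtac

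Positions count from the start site as 0, over windows from 250 bases before to 50 bases after a start. TAP1 held 2 overlapping ISRE core matches at -134 to -125 and -128 to -119 on the reverse strand, and NF-kappa B matches at -72 to -63 and, past the printed bases, at 22 to 31. B2M held the same kinds of match, with overlapping ISRE cores at -144 to -135 and -138 to -129 and an NF-kappa B match at -125 to -116. HLA-B had overlapping NF-kappa B matches at -177 to -168 and -176 to -167 and no ISRE core of these letters in the window. PSMB10 had an ISRE core at -21 to -12, and PSMB9 had no match to any of the 3 motifs in its window. TAP1 and PSMB9 are read away from each other from starts 488 bases apart. The TAP1 matches at -134 to -119 and -72 to -63 lie between these starts, beyond the 250 bases searched before the PSMB9 start. Of the 9 members, 6 held an ISRE core in at least 1 of their windows (HLA-F, B2M, TAP1, TAP2, PSMB8 and PSMB10), or in 6 of 11 windows, against 3.57% of all 35116 promoter windows in the table. The NF-kappa B consensus was in 4 members (HLA-B, HLA-C, B2M and TAP1), against 5.91% of all windows, and the GAS in 2 (TAP1 and PSMB8), against 7.66%. TAP1 and PSMB8 each have 2 windows, from 2 RefSeq starts, and the other members 1. A match describes these letters only.

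In BEV-stimulated cells HLA-B, HLA-F, B2M, TAP1 and TAP2 passed with a higher level than in NC in all 4 groups, while the 3 immunoproteasome genes passed in none. HLA-C passed in both *E. coli* groups and missed the threshold in SUC and SPL (edgeR, adjusted p = 0.0133 and 0.0163). Its log2 fold changes were 0.56 to 0.74 over the 4 groups, and it did not pass between the species (log2 difference 0.098, adjusted p = 0.786). TAP1 and HLA-F were DEGs in all 4 stimulated groups, and HLA-B and B2M were also DEGs in EUC. The number of members that were DEGs against NC, all higher, was 4 of 9 in EUC, where 9.43% of all tested genes were DEGs with a higher level, 2 of 9 in EPL (9.38% of tested genes), 2 of 9 in SUC (6.82%) and 2 of 9 in SPL (7.76%). Without the 2-fold threshold, 6, 6, 5 and 5 members passed and all were higher, with 16.5%, 16%, 12.4% and 13.3% of all tested genes higher at the same adjusted p. The median log2 fold change of the 9 members was 0.76, 0.77, 0.60 and 0.69, against at most 0.0067 in size for all tested genes. Across the 4 comparisons, which share the NC libraries, 5 of 9 members passed with a higher level in all (10.9% of tested genes) and 3 of 9 passed in none (65% of tested genes). Without the 3 libraries that stood apart, 2 members were DEGs with a higher level in each group (9.82%, 9.8%, 7.04% and 8.19% of tested genes in EUC, EPL, SUC and SPL) and 6 passed with a higher level in each (19.5%, 20.5%, 16% and 18.4%), while PSMB10 passed lower in EUC and EPL (log2 fold changes -0.40 and -0.37). Without EUC3 alone, HLA-B and B2M were no longer DEGs in EUC, which left 2, and without SUC1 alone 4 members were DEGs in SUC, HLA-B and B2M being added, or 3 without SUC2, B2M being added.

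**Figure D1:**
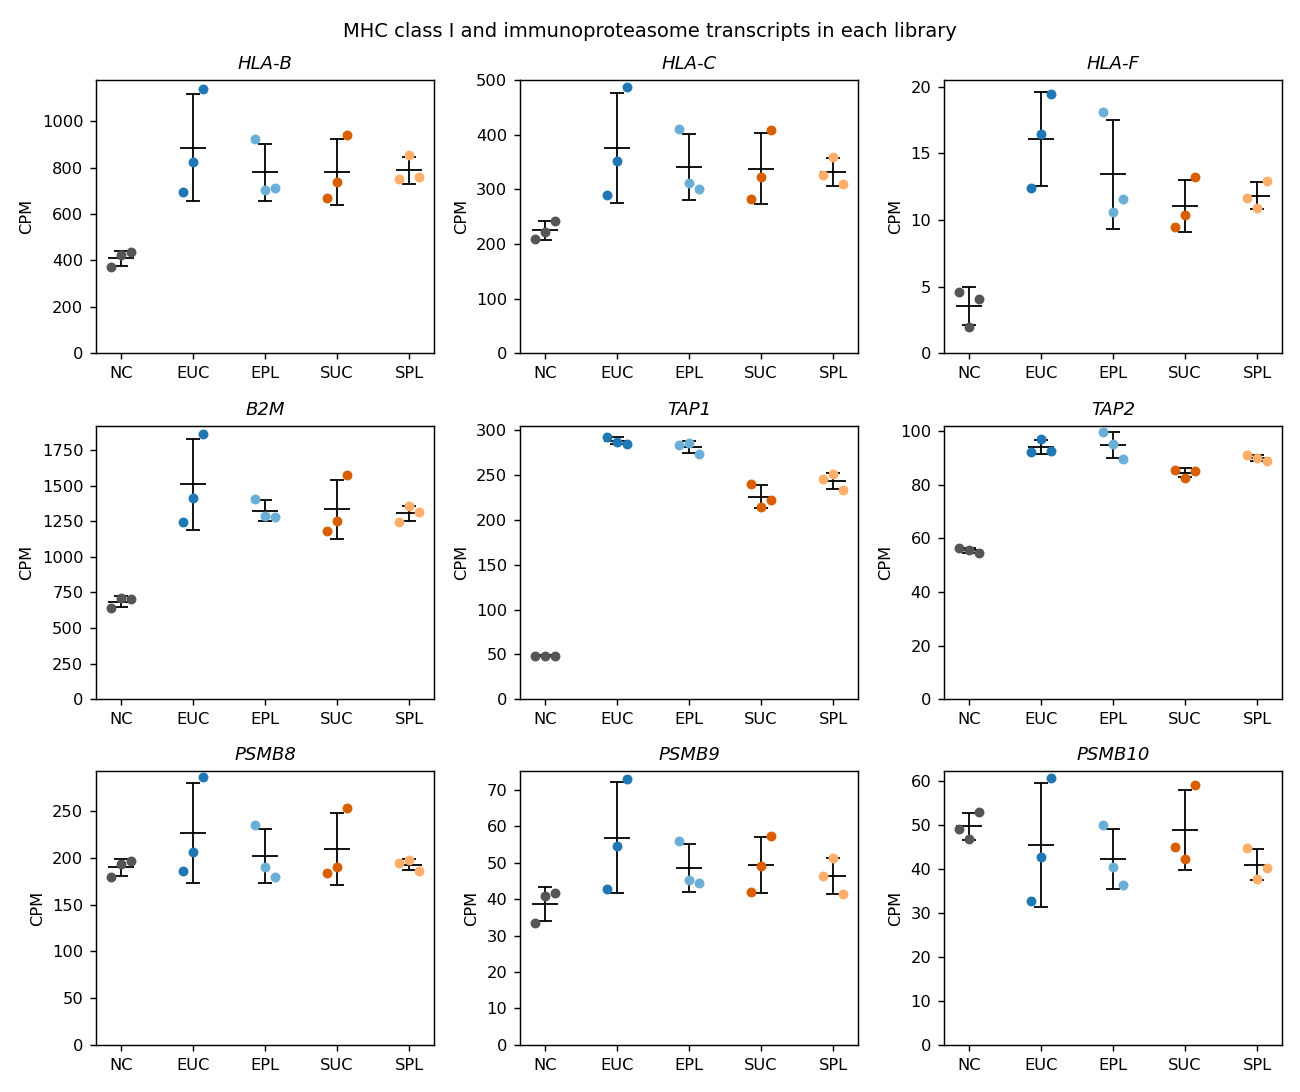
Level of each of the 9 members in every library, in CPM on a linear axis from 0, by group, with dots for libraries and bars for the mean ± SD (n = 3). In HLA-B, HLA-C, HLA-F, B2M, TAP1 and TAP2 all 12 stimulated libraries lie above all 3 NC libraries, whereas those of PSMB8, PSMB9 and PSMB10 overlap with NC.

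HLA-B (ENSG00000234745, chromosome 6, 31353872 to 31367067, minus strand; all gene positions are on hg38) is a classical heavy chain that presents peptides to CD8+ T cells. It measured 372.7, 422.1 and 435.1 CPM in NC, 694.7, 825.1 and 1140 in the EUC libraries, 923.1, 702.9 and 713.2 in the EPL libraries, 667.7, 739.4 and 941.6 in the SUC libraries and 751.9, 854 and 759.6 in the SPL libraries. Every stimulated library was above every NC library, and the stimulated groups overlapped with each other. The level was 2.16-fold that of NC in EUC (log2 fold change 1.11, SE 0.163, adjusted p = 2.82e-05, quasi-likelihood test of edgeR, adjusted by Benjamini-Hochberg), and 1.90-fold, 1.91-fold and 1.92-fold in EPL, SUC and SPL (adjusted p = 0.00019, 0.000245 and 0.000196). Without the 3 libraries, the log2 fold change in EUC was 0.89, under the 2-fold threshold, and still passed (adjusted p = 1.11e-10).

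HLA-C (ENSG00000204525, chromosome 6, 31268749 to 31272130, minus strand) is a classical heavy chain that is also read by receptors of NK cells. It measured 209.6, 222.8 and 243 CPM in NC, 290.6, 351.3 and 486.7 in the EUC libraries, 410.1, 311.8 and 301.5 in the EPL libraries, 282.2, 323.1 and 408.5 in the SUC libraries and 326.9, 358.8 and 309 in the SPL libraries. The 12 stimulated libraries were all above NC, with EUC3, EPL1 and SUC3 highest in their groups. HLA-C rose 1.67-fold in EUC and 1.52-fold in EPL (adjusted p = 0.00188 and 0.00895). In SUC and SPL it was 1.5-fold and 1.47-fold that of NC and did not pass (adjusted p = 0.0133 and 0.0163). It passed in both with DESeq2 (adjusted p = 0.0043 and 0.00631), with no low-count filter and with only the compared groups in the fit. Without EUC3, EPL1 and SUC3, HLA-C passed in all 4 groups with log2 fold changes of 0.43 to 0.56. With 1 library left out, its call in EPL was lost whichever EPL or NC library it was, and its call in EUC was lost without NC1.

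HLA-F (ENSG00000204642, chromosome 6, 29722775 to 29738528, plus strand), a nonclassical heavy chain with little variation between people, was the member with the lowest level per length. It measured 4.607, 1.941 and 4.054 CPM in NC, from 72, 33 and 68 counts. It measured 12.42, 16.4 and 19.46 in the EUC libraries, 18.11, 10.58 and 11.55 in the EPL libraries, 9.496, 10.37 and 13.2 in the SUC libraries and 11.63, 10.88 and 12.89 in the SPL libraries. The lowest stimulated library was above the highest NC library. HLA-F rose 4.57-fold in EUC (95% CI 3.09 to 6.76, adjusted p = 3.63e-06), 3.80-fold in EPL (adjusted p = 1.79e-05), 3.13-fold in SUC (adjusted p = 0.000148) and 3.35-fold in SPL (adjusted p = 7.06e-05).

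B2M (ENSG00000166710, chromosome 15, 44711358 to 44718851, plus strand) encodes beta-2 microglobulin, the light chain shared by class I molecules. It measured 639.8, 707.8 and 705.9 CPM in NC, 1249, 1418 and 1863 in the EUC libraries, 1408, 1289 and 1281 in the EPL libraries, 1183, 1250 and 1573 in the SUC libraries and 1249, 1355 and 1314 in the SPL libraries. All stimulated libraries were above the NC libraries, and EUC3 was the highest of all. B2M rose 2.21-fold in EUC (log2 fold change 1.14, SE 0.128, adjusted p = 1.34e-06), 1.94-fold in EPL, 1.95-fold in SUC and 1.91-fold in SPL (adjusted p = 1.12e-05, 1.44e-05 and 1.81e-05). Without the 3 libraries, its log2 fold change in EUC was 0.96, and it was no longer a DEG there (adjusted p = 4.98e-13).

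TAP1 (ENSG00000168394, chromosome 6, 32845209 to 32853816, minus strand) encodes a chain of the peptide transporter and had an SD of at most 13.0 CPM in any group. It measured 48.5, 48.58 and 47.93 CPM in NC, 293.2, 287.4 and 285.4 in the EUC libraries, 283.9, 286.2 and 273.5 in the EPL libraries, 240.3, 214.9 and 222.5 in the SUC libraries and 245.8, 251.7 and 234 in the SPL libraries. The 12 stimulated libraries were all above NC, and the 6 *E. coli* libraries were all above the 6 *S. aureus* libraries. TAP1 rose 5.97-fold in EUC (95% CI 5.37 to 6.64, log2 fold change 2.58, SE 0.072, adjusted p = 2.43e-14), 5.82-fold in EPL (adjusted p = 3.15e-14), 4.67-fold in SUC (adjusted p = 2.06e-13) and 5.04-fold in SPL (adjusted p = 1.04e-13).

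TAP2 (ENSG00000204267, chromosome 6, 32821833 to 32838739, minus strand) encodes the partner chain of TAP1. It measured 56.5, 55.64 and 54.67 CPM in NC, 92.35, 97.01 and 92.63 in the EUC libraries, 99.66, 95.13 and 89.66 in the EPL libraries, 85.67, 82.48 and 85.02 in the SUC libraries and 91.21, 89.97 and 88.8 in the SPL libraries. All stimulated libraries were above the NC libraries, and the SD within a group was at most 5.01 CPM. TAP2 rose 1.69-fold in EUC, 1.71-fold in EPL, 1.52-fold in SUC and 1.62-fold in SPL (adjusted p = 9.28e-08, 7.85e-08, 2.49e-06 and 3.69e-07), under the 2-fold threshold in each.

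PSMB8 (ENSG00000204264, chromosome 6, 32840717 to 32844679, minus strand), the immunoproteasome counterpart of PSMB5, measured 179.2, 193.6 and 196.2 CPM in NC, 186, 205.7 and 286.6 in the EUC libraries, 235, 190.5 and 179.8 in the EPL libraries, 184, 190 and 253.5 in the SUC libraries and 194.6, 197.8 and 185.7 in the SPL libraries. The groups overlapped, and EUC3, EPL1 and SUC3 were the highest of their groups. Its log2 fold change was 0.25 in EUC (95% CI -0.06 to 0.57) and 0.09, 0.14 and 0.02 in the other groups, and none passed (adjusted p = 0.19, 0.677, 0.52 and 0.929). Without the 3 libraries, the log2 fold changes were -0.03 to 0.04.

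PSMB9 (ENSG00000240065, chromosome 6, 32844136 to 32859851, plus strand), the counterpart of PSMB6, measured 33.34, 40.94 and 41.55 CPM in NC, 42.86, 54.59 and 73.04 in the EUC libraries, 55.97, 45.11 and 44.46 in the EPL libraries, 41.95, 49.05 and 57.17 in the SUC libraries and 46.37, 51.2 and 41.5 in the SPL libraries. The 6 *E. coli* libraries and all SUC libraries were above NC. SPL3, at 41.5 CPM, was just below the highest NC library (41.55 CPM), and the other SPL libraries were above NC. Its log2 fold change was 0.56 in EUC (95% CI 0.20 to 0.91, SE 0.167, adjusted p = 0.0129), close to the threshold, and 0.33, 0.35 and 0.26 in EPL, SUC and SPL (adjusted p = 0.135, 0.123 and 0.254). In EUC it passed with DESeq2 (log2 fold change 0.57, adjusted p = 0.0061), with no low-count filter and without EUC1. It also passed there with the trends against transcript length and GC content removed. In EUC it did not pass in the other settings, among them without the 3 libraries (0.33, adjusted p = 0.0112).

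PSMB10 (ENSG00000205220, chromosome 16, 67934506 to 67936864, minus strand), the counterpart of PSMB7, measured 49.08, 46.7 and 52.94 CPM in NC, 32.71, 42.74 and 60.61 in the EUC libraries, 49.8, 40.4 and 36.34 in the EPL libraries, 44.88, 42.24 and 59.08 in the SUC libraries and 44.71, 37.74 and 40.12 in the SPL libraries. The SPL libraries were below NC, and the other groups overlapped with it. Its log2 fold change was -0.13, -0.23, -0.02 and -0.28, and none passed (adjusted p = 0.61, 0.334, 0.938 and 0.263). EUC3 and EPL1 had the highest level of their groups. Without the 3 libraries, PSMB10 passed lower in EUC and EPL, with log2 fold changes of -0.40 and -0.37 (adjusted p = 0.00148 and 0.00272). With SPL and NC alone in the fit, PSMB10 passed in SPL. With the trends against transcript length and GC content removed from each library, which was chosen after seeing the data, its log2 fold changes were -0.12 to 0.11 and none passed.

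**Figure D2:**
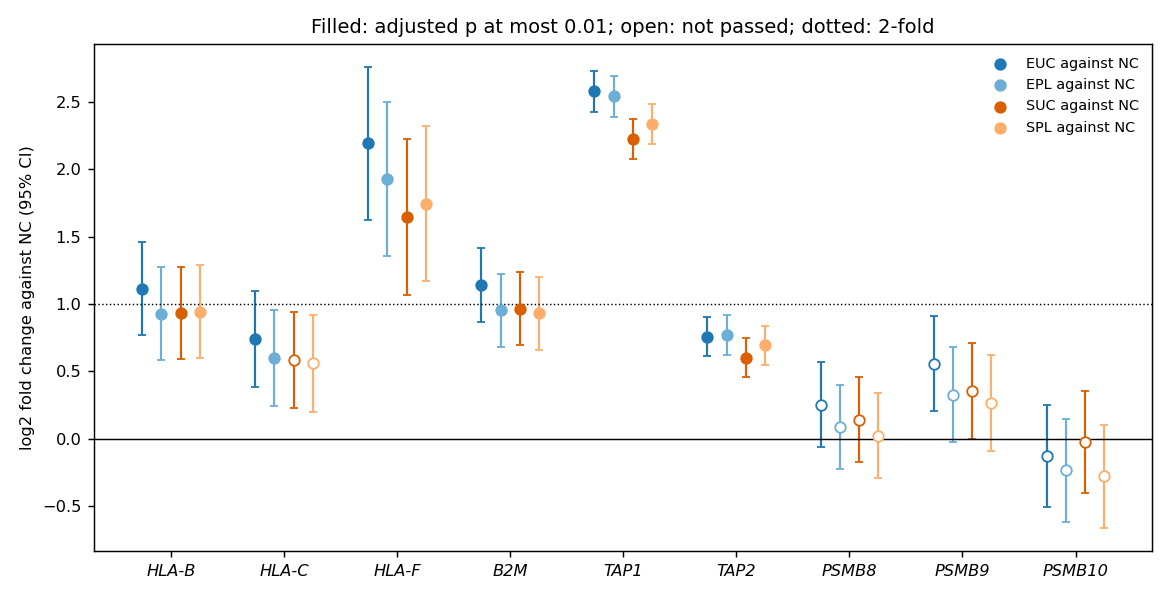
Fitted log2 fold change against NC of the 9 members in the 4 stimulated groups, with 95% confidence intervals. Filled points passed the adjusted p of 0.01, open points did not, and the dotted line marks 2-fold. TAP1 and HLA-F lie above 1 in all groups, whereas the intervals of PSMB8 and PSMB10 span 0.

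Levels were compared between members only per length, as CPM per kilobase of the Ensembl canonical transcript. In NC, B2M was the most abundant with 726 ± 41.0 (SD, n = 3), followed by HLA-B with 267 ± 21.4, PSMB8 with 169 ± 8.14, HLA-C with 146 ± 10.9, PSMB10 with 50.7 ± 3.22, PSMB9 with 38.0 ± 4.50, TAP1 with 18.0 ± 0.132, TAP2 with 9.85 ± 0.162 and HLA-F with 2.39 ± 0.951. The library ranges of neighbours in this order did not overlap. In stimulated cells HLA-C stood above PSMB8 in the means of all 4 groups, but their ranges overlapped in EUC, EPL and SUC. TAP1 reached 108, 105, 84.2 and 90.8 CPM per kilobase in the EUC, EPL, SUC and SPL groups, above both PSMB9 and PSMB10, which it had been below in NC. PSMB9 and PSMB10 were neighbours with overlapping ranges in all 4 stimulated groups. B2M and HLA-B stayed at the top and TAP2 and HLA-F at the bottom of the order.

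Partner genes were then compared as ratios within each library, which removes any scaling between libraries. For the exact two-sided permutation tests of the log2 ratios, the smallest possible p was 0.0044 for the 12 stimulated against the 3 NC libraries and 0.00216 for the 6 *E. coli* against the 6 *S. aureus* libraries, and p-values were adjusted over the 10 tests.

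The TAP1 to TAP2 ratio per length was 1.83 ± 0.0204 in NC (SD, n = 3) and 6.46 ± 0.223, 6.24 ± 0.224, 5.62 ± 0.235 and 5.69 ± 0.173 in the EUC, EPL, SUC and SPL groups. The chains of the transporter did not change equally, with a ratio 3.28-fold that of NC in stimulated cells (exact p = 0.0044, adjusted p = 0.011) and 1.12-fold higher with *E. coli* than with *S. aureus* BEVs (exact p = 0.00216, adjusted p = 0.0108). Neither comparison had overlapping libraries. The HLA-B to B2M ratio was 0.367 ± 0.0105 in NC and 0.358 to 0.371 in the means of the stimulated groups, with a log2 difference of -0.02 (exact p = 0.615).

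Among the immunoproteasome genes, the PSMB8 to PSMB5 ratio per length was 2.1 ± 0.103 in NC (SD, n = 3) and 1.61 ± 0.0773, 1.7 ± 0.0767, 1.63 ± 0.0657 and 1.53 ± 0.0408 in the EUC, EPL, SUC and SPL groups. All 12 stimulated libraries were below all NC libraries, and the ratio was 0.769-fold that of NC (log2 difference -0.38, exact p = 0.0044, adjusted p = 0.011). PSMB5, the constitutive subunit in this ratio, had log2 fold changes of 0.64, 0.39, 0.51 and 0.48 and passed in EUC (adjusted p = 0.0017). The PSMB9 to PSMB6 ratio was 0.876, 0.926 and 0.873 in NC and 1.06 to 1.2 in the *E. coli* libraries, which did not overlap, and 0.834 to 1.02 in the *S. aureus* libraries, which overlapped with NC. It was 1.2-fold higher with *E. coli* than with *S. aureus* BEVs (exact p = 0.00216, adjusted p = 0.0108), while the difference of all stimulated libraries from NC did not pass 0.05 (log2 difference 0.21, exact p = 0.0527). The level of PSMB9 alone differed by 0.13 on the log2 scale between the species and did not pass (edgeR, adjusted p = 0.674). The PSMB10 to PSMB7 ratio was 0.539 ± 0.0426 in NC, and 9 of 12 stimulated libraries were below all NC libraries, with a log2 difference of -0.25 (exact p = 0.0879). The other 3 were EUC3, EPL1 and SUC3. Without them, a choice made after seeing the data, the log2 difference was -0.35 (exact p = 0.00909, the smallest possible). Leaving out these 3 libraries fixed that p in advance, and no conclusion is drawn from it. Between the species it differed by -0.03 on the log2 scale (exact p = 0.838).

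**Figure D3:**
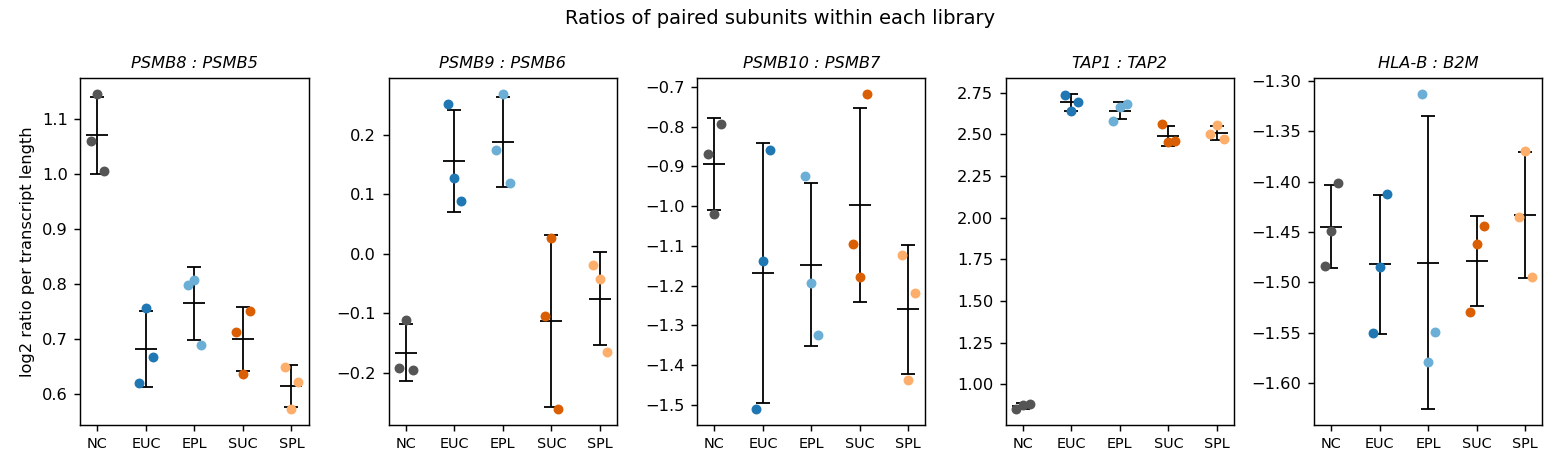
Log2 ratio per transcript length of 5 gene pairs in every library, by group, with dots for libraries and bars for the mean ± SD (n = 3); each panel has its own axis, which does not start at 0. The TAP1 to TAP2 ratio lies higher and the PSMB8 to PSMB5 ratio lower in all 12 stimulated libraries than in NC, and the PSMB9 to PSMB6 ratio separates the *E. coli* from the *S. aureus* libraries.

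TAP1 was the member that passed between the species. Its level with 1 μg/mL *E. coli* BEVs was 273.5 to 293.2 CPM and with 10 μg/mL *S. aureus* BEVs 214.9 to 251.7 CPM, without overlap. The ratio was 1.21-fold (95% CI 1.13 to 1.3, log2 0.28, SE 0.0475, adjusted p = 0.00106), and 1 of 9 members passed with a higher level, against 2.87% of tested genes. Among UC groups alone the log2 difference was 0.35 (adjusted p = 0.00396, 1 of 9 members against 2% of tested genes), a call that was lost without EUC1, EUC2, SUC2 or SUC3, with library totals only, with no low-count filter and with only those groups in the fit. Among PL groups it was 0.21 and did not pass (adjusted p = 0.237, 0 of 9 members against 0.291% of tested genes). HLA-F and TAP2 differed by 0.36 and 0.12 on the log2 scale and did not pass (adjusted p = 0.282 and 0.21). The other 6 members differed by -0.03 to 0.13.

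Between the isolation methods, no member passed. In EPL against EUC, the log2 differences were -0.26 to 0.01, with 95% CIs that reached at most 0.762 in size, and 0 of 9 members passed, as did 0% of tested genes. In SPL against SUC they were -0.25 to 0.11, with CIs that reached at most 0.636 in size, and 0 of 9 members passed against 0.00581% of tested genes. The difference of methods between the species was -0.36 to 0.15 and none of the 9 passed (0% of tested genes). In these 3 comparisons edgeR gave 0 members with an unadjusted p under 0.05, and DESeq2 also called 0. The intervals were narrower for TAP1, which differed by -0.04 in *E. coli* (95% CI -0.18 to 0.10) and by 0.11 in *S. aureus* (95% CI -0.03 to 0.25).

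In EUC3, EPL1 and SUC3, the 7 members with the shorter transcripts (943 to 1542 bases) were on average 0.38, 0.26 and 0.27 above their group means on the log2 scale, and in EUC1 they were 0.33 below. TAP1 and TAP2, with transcripts of 2685 and 5643 bases, were on average -0.02, 0.04 and -0.0047 from their group means in those 3 libraries. With the trends against length and GC content removed from each library, 4, 3, 3 and 3 members were DEGs with a higher level, against 9.88%, 9.75%, 7.29% and 8.19% of tested genes. HLA-B was added in EPL, SUC and SPL, HLA-C passed in all 4 groups, and PSMB9 passed in EUC and EPL (log2 fold changes 0.58 and 0.42, adjusted p = 0.000595 and 0.0078). Under this setting 7, 7, 6 and 6 members passed higher, against 20.6%, 19.4%, 15.5% and 17.1% of tested genes.

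**Figure D4:**
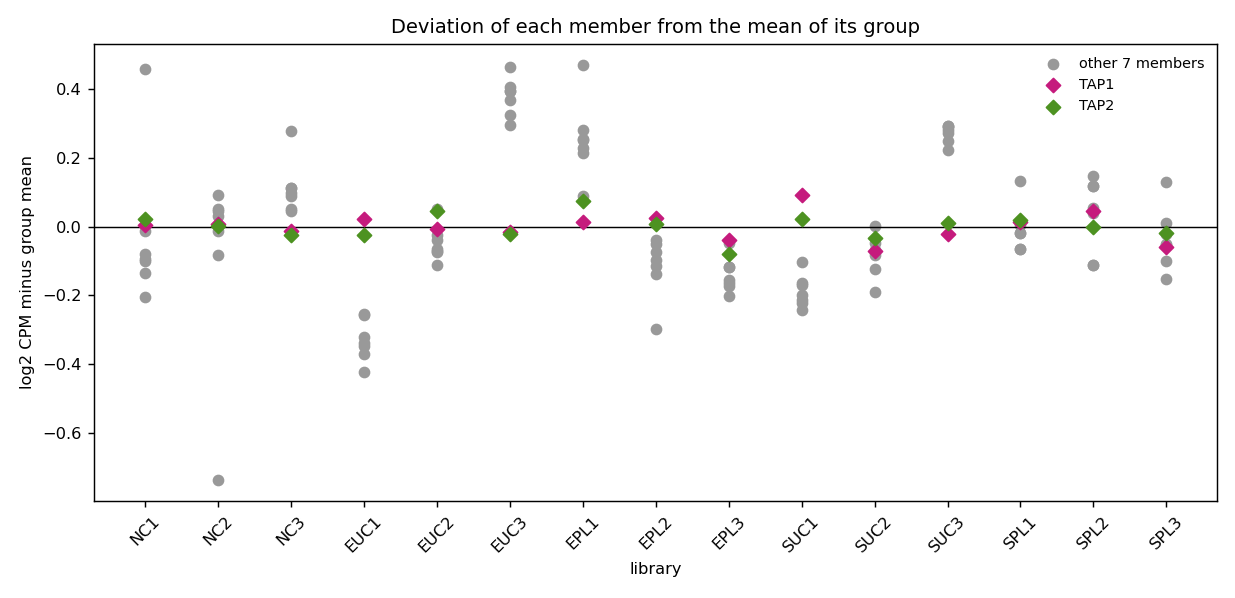
Deviation of each member's log2 CPM from the mean of its group, for the 15 libraries, with TAP1 and TAP2 as diamonds and the other 7 members as grey dots. The 7 members lie together above 0 in EUC3, EPL1 and SUC3 and below 0 in EUC1, while TAP1 and TAP2 stay within 0.1 of 0 in every library.

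The other genes of the pathway were taken from lists by role. Of all tested genes, 18.6% passed in at least 1 of the 4 comparisons with a higher mean level, 16.4% with a lower one, 10.9% passed higher in all 4 and 7.67% lower in all 4, and 17.3% were DEGs in at least 1. Of 6 tested class I and class I-like heavy chains outside the members, 1 passed higher and 1 lower in all 4 groups. HLA-E, which presents leader peptides of other class I chains, went from 99.6 CPM in NC to between 168 and 228 CPM in the stimulated groups (log2 fold changes 0.76 to 1.2). CD1D, which presents lipids to NKT cells, fell from 92.6 ± 2.43 CPM to means of 22.2, 25.1, 35.7 and 37.9 CPM for EUC, EPL, SUC and SPL (log2 fold changes -2.06, -1.89, -1.38 and -1.29). Of 8 genes for peptide loading and trimming in the endoplasmic reticulum, 1 passed, and this was TAPBP, which tethers the transporter to class I molecules, with 147 CPM in NC and 339 to 395 CPM in stimulated groups (log2 fold changes 1.2 to 1.42).

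Of 6 cytosolic peptidases, 4 passed higher in at least 1 group (18.6% of tested genes did so). The largest change was that of LAP3, a leucine aminopeptidase, which measured 103 CPM in NC and 291 to 310 CPM in stimulated groups (log2 fold changes 1.49 to 1.59). Of the 3 constitutive catalytic subunits PSMB5 alone passed, in EUC. PSMB6 had log2 fold changes of -0.02 to 0.32 and PSMB7 of 0.01 to 0.11, and neither passed. Of the 11 other subunits of the 20S core 4 passed higher in at least 1 group (18.6% of tested genes), and 1 was a DEG (17.3% of tested genes). This was PSMA6, at a low level of 3.30 CPM in NC and 6.44 to 7.79 CPM in stimulated groups (log2 fold changes 0.97 to 1.24). Sequence shared with other genes was checked for the members only, not for PSMA6. Of 19 subunits of the 19S particle, which feeds unfolded proteins to the core, 6 passed higher in at least 1 group (18.6% of tested genes) and 0 were DEGs (17.3% of tested genes). Of 4 other activators 1 passed (PSME2, a subunit of the interferon-induced activator, log2 fold changes 0.49 to 0.61, named after its values were seen), and of 6 genes for assembly factors and an inhibitor 2 passed lower and 0 higher.

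Of 16 transcription factors known to act on class I genes, 8 passed higher and 3 lower in at least 1 group (18.6% and 16.4% of tested genes), and 7 were DEGs (17.3%). NFKB1, which encodes a subunit of NF-kappa B, had log2 fold changes of 2.81, 2.71, 2.42 and 2.54. The interferon signal transducer STAT2 had log2 fold changes of 2.09 to 2.72, and IRF9, its partner in the factor that reads the ISRE, of 1.72 to 2.13. IRF1, an activator of class I genes, went from 21.6 CPM in NC to between 50.8 and 63.1 CPM (log2 fold changes 1.23 to 1.54), and IRF2, which binds the same sites, had log2 fold changes of 1.36 to 1.91. IRF8, a factor of the monocyte lineage, fell from 1049.8 CPM to between 270 and 396 CPM (log2 fold changes -1.96 to -1.40). CIITA, the coactivator of MHC class II genes, was a DEG in EUC, EPL and SPL (1.41, 1.98 and 1.03) and did not pass in SUC (0.45, adjusted p = 0.274). NLRC5, the class I coactivator, had log2 fold changes of -0.05 to 0.26 and did not pass in any group.

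**Figure D5:**
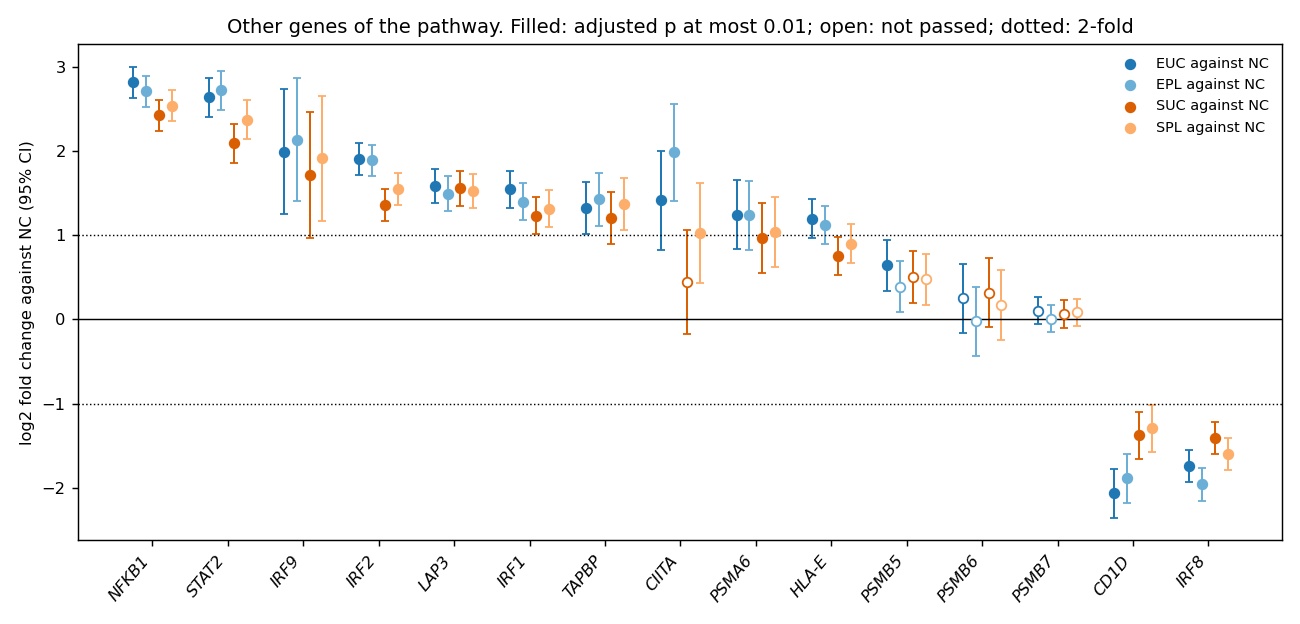
Fitted log2 fold change against NC of 15 other genes of the pathway in the 4 stimulated groups, with 95% confidence intervals. Filled points passed the adjusted p of 0.01, open points did not, and dotted lines mark 2-fold. NFKB1 and STAT2 lie highest, CD1D and IRF8 lie below -1 in all groups, and the intervals of PSMB6 and PSMB7 span 0.

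Some members share sequence with other annotated genes, and counting with regard to strand is not stated. Of 150-base windows of the canonical transcript, 17% were shared by TAP1 with the antisense gene PSMB8-AS1, which had 131 to 240 counts and log2 fold changes of -0.13 to 0.15 that did not pass. PSMB10 shared 30.3% with ENSG00000261884, which had 42 to 103 counts and log2 fold changes of 0.19 to 0.55 that did not pass. TAP2 shared 34.1% with ENSG00000250264, which had at most 1 count in any library. HLA-F shared 17.8%, among others with HLA-F-AS1 (1 to 15 counts), and HLA-B shared 8.87% with ENSG00000271581 (at most 3 counts). The paper does not state how reads in shared stretches were counted. The levels and ratios per length of TAP1, TAP2, PSMB10, HLA-F and HLA-B are uncertain to that extent, also where the other gene had few counts. HLA-C, B2M, PSMB8 and PSMB9 shared no window of this length in their canonical transcripts. Over all annotated exons, PSMB8-AS1 overlapped 17.3% of the bases of PSMB8 and 5.2% of those of PSMB9. DHFRP2, with 0 counts, overlapped 30.7% of those of HLA-B. The counts of PSMB8 and PSMB9 are therefore also uncertain where exons overlap. At 50 bases HLA-B shared 20.6%, HLA-C 6.76% and HLA-F 35.4% with other genes, other HLA genes among them, so that the HLA counts are uncertain where reads were split among them.

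The genes outside all lists whose log2 CPM followed the mean of the standardised members most closely over the 15 libraries, among 8914 genes of at least 10 CPM, were VASP (r = 0.990), BST2 (r = 0.989), CHMP4B (r = 0.989), COTL1 (r = 0.989) and TALDO1 (r = 0.986). They went from 223 to 292, 156 to 256, 85.9 to 126, 537 to 767 and 363 to 635 CPM between NC and the mean of the stimulated libraries. The members themselves had r of 0.990 for HLA-C and 0.978 for HLA-B down to 0.757 for PSMB8 and 0.233 for PSMB10, with TAP1 at 0.816. These correlations are descriptions, since the libraries share the conditions and the 3 libraries that stood apart.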

How the data were processed

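The authors extracted total RNA, built libraries with an NEB kit that does not mark strand, and sequenced paired ends of 150 bases. The labels' processing notes name FastQC 0.11.5, HISAT2 2.1.0, StringTie 1.3.3b, featureCounts, DESeq 1.28.0 and hg38. The authors deposited raw read counts per Ensembl gene. The strand setting and the annotation used for counting are not stated by the sources used here. Reads were aligned to the reference, whose HLA alleles need not be those of THP-1.

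The deposited counts were analysed with edgeR 4.0.16 (filterByExpr, TMM, quasi-likelihood test, all 15 libraries in one fit) and, as an alternative, DESeq2 1.42.0 in R 4.3.3, with Benjamini-Hochberg adjustment, over 17198 genes in edgeR and over the genes left by its own filter in DESeq2. Over all genes the biological coefficient of variation was 0.118 in common, and 0 columns were left unused. Log2 ratios used a pseudocount of 0.5 and exact permutation tests. Positions and lengths came from GENCODE 44. The scripts were tested on simulated counts. The alternatives were other scalings, filters, samples in the fit, a replicate block and libraries left out.

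All members were named. Of the other lists, genes that were DEGs in at least 1 comparison with NC and the 3 constitutive subunits were named. The 5 genes most like the members and some of the genes that overlap them were named too. Certain genes of these lists are not reported here. The members and lists were chosen with earlier results of these data known.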

Additional observations from a re-analysis of the deposited data

Results flagged for a closer look

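The following genes had changes against NC that differed between the *E. coli* and the *S. aureus* groups by the direct test of the difference (edgeR, Benjamini-Hochberg adjustment over all tested genes), and the differences are log2 values of *E. coli* minus *S. aureus*. TAP1 differed by 0.28 (adjusted p = 0.00106), higher in 6 of 6 *E. coli* libraries than in any *S. aureus* library. Of the transcription factors, IRF2 differed by 0.45 (adjusted p = 0.000114), STAT2 by 0.45 (adjusted p = 0.000649), NFKB1 by 0.28 (adjusted p = 0.00527) and CIITA by 0.96 (adjusted p = 0.00326). CD1D differed by -0.64 (adjusted p = 0.000356) and IRF8 by -0.35 (adjusted p = 0.00166). The doses differed by species, and the parts of dose and species cannot be told apart.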

How the results depend on the processing

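Of 1392 log2 fold changes of members and named genes under alternative settings, 1306 kept their direction and their side of the threshold, 25 lost their call, 35 gained one and 26 changed sign. Of 195 ratio differences and 162 counts of member DEGs, 175 and 153 did so or stayed within 1.5 times. With the adjusted p alone, 6 members were called in EPL, 5 in SUC, 5 in SPL, 1 in *E. coli* against *S. aureus* and 1 in EUC against SUC. With library totals only, which moved the median of all genes by -0.161, -0.125, -0.114 and -0.121 in EUC, EPL, SUC and SPL, and without the 3 libraries EPL1, EUC3 and SUC3 (chosen after seeing the data), 2 members were DEGs in EUC. Leaving out each library in turn gave 2 to 4 DEGs in EUC, where HLA-B and B2M were lost without EUC3, and 2 to 4 in SUC, with 4 without SUC1. HLA-C in EPL lost its call without any 1 EPL or NC library, and HLA-C in EUC without NC1. With SPL and NC alone in the fit, PSMB9 and PSMB10 also passed in SPL. Their log2 fold changes in SPL went opposite ways in the main analysis, at 0.26 for PSMB9 and -0.28 for PSMB10. TAP1 kept its call in the pooled *E. coli* against *S. aureus* comparison in all settings run, and its call between EUC and SUC was lost with library totals only, with no low-count filter, with only those groups in the fit, and without EUC1, EUC2, SUC2 or SUC3.

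Under library totals only, PSMB8 was at -0.038 in EPL and -0.092 in SPL, and PSMB7 at -0.060, -0.11, -0.056 and -0.028 in EUC, EPL, SUC and SPL. Without the 3 libraries, PSMB8 was at -0.032 in EPL and -0.014 in SUC, PSMB6 at -0.014 in EUC and PSMB7 at -0.00102 in EPL. With the trends removed, PSMB10 was at 0.015 in EUC and 0.11 in SUC, and PSMB6 at 0.067 in EPL. With libraries left out in turn, PSMB8 ranged from -0.036 to 0.16 in EPL, -0.021 to 0.23 in SUC and -0.017 to 0.060 in SPL, PSMB10 from -0.40 to 0.062 in EUC and -0.19 to 0.081 in SUC, PSMB6 from -0.017 to 0.46 in EUC and -0.15 to 0.060 in EPL, and PSMB7 from -0.0094 to 0.031 in EPL. None of these values passed in the main analysis.

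A ratio is said here to have a call if its unadjusted exact p was under 0.05, which is a looser threshold than the adjusted p of 0.01 used for genes. For the exact permutation tests of log2 ratios, PSMB9 to PSMB6 in stimulated cells was at 0.22 in PL libraries only (p = 0.0476), 0.21 with the replicate block (p = 0.032), 0.22 without the 3 libraries (p = 0.0182) and 0.18 to 0.23 with each library left out, with a call without SPL3, SUC1 or SUC3. In the same exact tests, PSMB10 to PSMB7 was at -0.31 in PL libraries only (p = 0.0476), -0.25 with the block (p = 0.048), -0.35 without the 3 libraries (p = 0.00909) and -0.31 to -0.20 with each library left out, with a call without SUC3. The p without the 3 libraries was fixed by leaving out the only stimulated libraries that were not below all NC libraries. Between the species, with UC or PL libraries only the smallest p was 0.1, and PSMB9 to PSMB6 was at 0.27 and 0.26, TAP1 to TAP2 at 0.20 and 0.13. PSMB8 to PSMB5 was at -0.019 in UC libraries, PSMB10 to PSMB7 at 0.11 in PL libraries and -0.091 to 0.053 with each library left out, and HLA-B to B2M at -0.082 without the 3 libraries (exact p = 0.0476). The cause of these changes was not tested. Correlations of deviations from the group mean could not decide whether the replicate numbers pair the samples. Between groups, 7 of 30 same-numbered pairs correlated over 0.1 (r from -0.452 to 0.525), and 12 of 60 differently numbered pairs (r from -0.484 to 0.488). The highest r of each kind was between libraries that stood apart (EUC3 with SUC3, EPL1 with EUC3). With the replicate block no member's call changed. HLA-F, with 33 to 72 counts per NC library, was limited most by depth.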
